A study of Mus musculus with 9 samples.

Results

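Oxidative phosphorylation (OXPHOS) genes were followed across 3 mouse hematopoietic cell lines by bulk RNA-seq of poly-A RNA. Gene symbols were searched for the names of complex I (*Nduf*), II (*Sdh*), III (*Uqcr*), IV (*Cox4* to *Cox8*) and V (*Atp5*) and for the protein-coding genes of the mitochondrial genome. The search took in 125 of the 54347 genes in the table. Of these, 14 had a pseudogene suffix and 8 stayed under 10 counts in every library, which left 103 genes: 13 of the mitochondrial genome and 90 nuclear genes. Of the nuclear genes, 82 carry the name of a subunit and 8 are *Ndufaf* factors, which assemble complex I and are not part of it. *Ndufb4c*, counted among the 82, is annotated as a processed pseudogene and is identical to *Ndufb4* over 390 bases. The weakest gene kept, *Cox6b2*, reached 13 counts, and the strongest of the 8 left out, *Cox6c2*, reached 1 count.

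The progenitor lines Hox-WT and Hox-URE were immortalized with an estrogen-regulated Hoxb8 (Hoxb8-ER), from c-Kit+ bone marrow of a wild-type and a UREd/d mouse. The UREd/d genotype lacks the upstream regulatory element of *Spi1*, which encodes the transcription factor PU.1. URE-AML (B22) was grown from leukemic blasts of a UREd/d mouse and carries the same genotype. All 3 lines were grown in 20% FCS with IL-3, IL-6 and SCF at 10 ng/ml each and 1 µM estradiol by the labels, and each gave 3 libraries. The study's methods give another concentration of estradiol, and which one was used is not settled here. The wild type is represented by 1 line and the 2 UREd/d lines also differ in origin, so genotype, line and culture history cannot be told apart. Whether separate cultures gave the 3 libraries of each line is not given in the sources used here, and the tests measure only the spread between them.

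The 9 libraries held 20331064 to 28588718 counts. *Spi1* averaged 103 ± 6.79 CPM (each count relative to the scaled total of its library; SD, n = 3) for Hox-WT, 0.026 ± 0.0226 for Hox-URE and 4.79 ± 2.02 for URE-AML. *Hoxb8* was at 0 in URE-AML. The lines differed in maturity markers: 5 neutrophil markers summed to 4010 to 6860 CPM for Hox-WT, 134 to 144 for Hox-URE and 8040 to 15900 for URE-AML, and 3 progenitor markers to 1740 to 2000, 821 to 1310 and 257 to 293. *Cd34* carried most of the progenitor sum in the Hox lines and averaged 0.0135 CPM in URE-AML, whereas *Kit* was higher in URE-AML relative to Hox-URE (43.0 and 97.0 CPM in Hox-URE and URE-AML) and *Myb* was not called there. In sum, 5 erythroid markers reached at most 13.7 CPM, 4 lymphoid markers 2.61 and 3 megakaryocyte markers 46.4. The 4 monocyte markers summed to 57.5 to 91.4 CPM for Hox-WT, 5.35 to 5.64 for Hox-URE and 109 to 311 for URE-AML, of which *Cd14* held most (61.9, 5.22 and 189 CPM on average). *Ly86* and *Csf1r* were lower in URE-AML relative to Hox-WT, and *Ly86* was at 0 in URE-AML. The 3 genes listed for stroma summed to 160 to 169, 218 to 226 and 622 to 834 CPM. Of these, the collagens *Col1a1* and *Col1a2* were at 0 in URE-AML, so the sum there was *Pecam1* alone (748 ± 111 CPM). The part of these differences in the OXPHOS values was not tested.

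The respiratory chain passes electrons from NADH, at complex I, and from succinate, at complex II, through coenzyme Q to complex III, and through cytochrome c to complex IV, where oxygen is reduced. Complexes I, III and IV pump protons across the inner mitochondrial membrane, and complex V uses the return flow to make ATP. Complex II is built from nuclear genes alone, whereas in each of the other complexes some subunits come from mitochondrial DNA and the rest from the nucleus.

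Promoter sequences of nuclear OXPHOS genes are shown first, because motifs of the factors NRF1, GABPA and YY1 are a known feature of this gene class. RefSeq promoters (GRCm38.p6, 250 bases before to 50 after the start site) were matched for 74 of the 90 nuclear genes and were searched on both strands. The NRF1 motif (GCGCA, any base, GCGC) lay in 19 of the 74 genes (25.7%), beside 5.19% of all 27025 genes with a promoter. The ETS motif CCGGAAG, bound by GABPA, also lay in 19 (25.7%), beside 9.93% of all genes. The YY1 motif AAGATGGCG lay in 8 (10.8%), beside 1.64%. A PU.1 motif, GAGGAAGT, lay in 3 (4.05%), beside 3.69%. Of the 17 matched genes that changed between any pair of lines, 3 held the NRF1 motif, 2 the ETS motif, 2 the YY1 motif and 1 the PU.1 motif. The promoter of *Sdhd*, a complex II subunit that was lower in Hox-URE, held both, and they are in capitals in its sequence (chr9:50603800-50604099, minus strand). The promoter of *Ndufa1*, the OXPHOS gene with the largest increase in Hox-URE, held none of the 4 in its window (chrX:37191189-37191488, minus strand) and has no capitals.
Sdhd promoter: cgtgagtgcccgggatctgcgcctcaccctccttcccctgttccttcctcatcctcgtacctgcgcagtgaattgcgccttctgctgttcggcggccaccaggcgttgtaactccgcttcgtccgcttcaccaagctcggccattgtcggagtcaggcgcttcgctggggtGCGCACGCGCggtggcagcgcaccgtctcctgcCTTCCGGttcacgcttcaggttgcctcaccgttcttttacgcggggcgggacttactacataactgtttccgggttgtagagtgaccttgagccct
Ndufa1 promoter: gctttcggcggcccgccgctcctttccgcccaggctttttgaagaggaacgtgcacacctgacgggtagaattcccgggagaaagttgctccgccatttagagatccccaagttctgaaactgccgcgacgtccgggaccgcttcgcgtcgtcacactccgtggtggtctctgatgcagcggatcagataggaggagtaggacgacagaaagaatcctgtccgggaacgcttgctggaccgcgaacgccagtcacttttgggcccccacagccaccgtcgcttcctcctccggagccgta
In GENCODE M21 the *Ndufa1* transcript starts 76 bases downstream of the RefSeq start, and its first 30 bases (chrX:37191134-37191163, minus strand) hold the ETS motif from the second base on, here in capitals.
Ndufa1 transcript start: gCCGGAAGagaggtaaagccgggtcacctc
These matches describe the letters in each window and say nothing of binding.

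Some OXPHOS genes have near-identical copies elsewhere in the genome, and their sequences are shown because reads cannot always be assigned between such copies. A search of GENCODE M21 transcripts found 58 pseudogene rows with at least 95% identity over at least 80% of the shorter sequence, to 33 of the 103 genes. Of these, 37 held counts. The mitochondrial *mt-Co3*, a core subunit of complex IV, and *Gm28437*, an insertion of mitochondrial DNA in chromosome 1, were identical over all 783 aligned bases. *mt-Atp6* and *Gm10925* were identical over 678 bases. *mt-Nd3* and *Gm28438* were identical over a stretch of 342 bases and 99.71% identical over a longer one of 345. A stretch of 30 bases is given for *mt-Co3* (chrM:8707-8736) and for its copy (chr1:24613842-24613871, minus strand), and no base differs.
mt-Co3: gatttcactataattcaattacactattaa
Gm28437: gatttcactataattcaattacactattaa
*Ndufs5*, a complex I subunit on chromosome 4, and its processed copy *Ndufs5-ps* (chromosome 16, plus strand) differed at 2 of 319 aligned bases. The substitutions were T328C and A352G, counted from 1 at the 5′ end of the annotated principal *Ndufs5* transcript, with the base of *Ndufs5* first. The capital marks T328C in the next pair, where the copy lies at chr16:42955696-42955725.
Ndufs5: cgcagaacagccctaTaagaacgccgctcg
Ndufs5-ps: cgcagaacagccctaCaagaacgccgctcg
The 11 copies of mitochondrial genes, on chromosomes 1, 2 and 13, took 0.531% to 1.03% of all counts in a library, beside 2.74% to 5.15% for the 13 mitochondrial genes themselves.

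In each comparison of the 3 lines, a smaller share of OXPHOS genes than of all genes was called. A gene was called changed at an adjusted p under 0.05 (edgeR quasi-likelihood test, adjusted over the 13082 genes tested) and a fold change over 1.5. Of the 103 OXPHOS genes, 100 were tested, and *Cox4i2*, *Cox6a2* and *Cox6b2* were too low. In Hox-URE versus Hox-WT, 11 of 100 were called, beside 37.2% of all genes: 6 were higher (all genes 21.3%) and 5 lower (all genes 15.9%). In URE-AML versus Hox-WT, 12 were called, beside 43.2% of all genes: 7 were higher (all genes 23.0%) and 5 lower (all genes 20.2%). In URE-AML versus Hox-URE, 12 were called, beside 42.7% of all genes: 6 were higher (all genes 20.3%) and 6 lower (all genes 22.4%). These splits moved when counts were scaled by library total alone, where 4 nuclear genes were higher and 7 lower in the first comparison and 12 higher and 4 lower in the third, with no mitochondrial gene called. The median of all genes was then -0.08 and 0.11 in these comparisons, beside 0.00 with TMM scaling.

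The same held for the share without a fold threshold, where 33, 37 and 33 of the 100 genes passed an adjusted p of 0.05 in the 3 comparisons in that order, beside 53.0%, 57.7% and 58.0% of all genes. The 3 libraries of one line lay entirely above or below those of the other for 38, 43 and 38 genes, beside 60.3%, 67.6% and 62.8% of all genes. The median absolute log2 fold change of the OXPHOS genes was 0.25, 0.23 and 0.25, and that of all genes 0.49, 0.56 and 0.55. Of the 100 genes, 78 were called in no comparison, 10 in 1, 11 in 2 and 1 in all 3, which was *Cox7a2l*. The same tally was not made over all genes, so it has no background here.

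**Figure D1:**
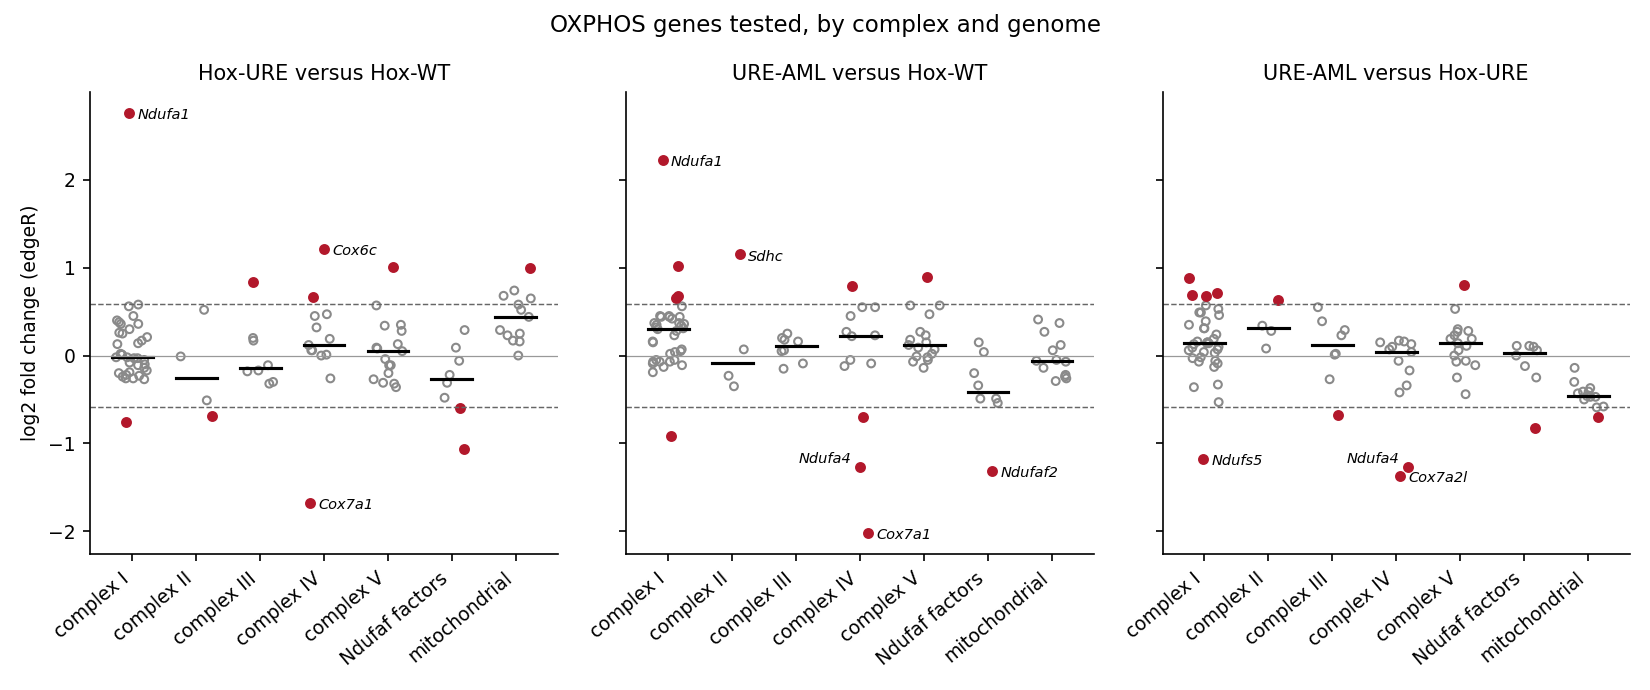
Log2 fold changes (y axis) of the 100 OXPHOS genes tested in the 3 comparisons (panels), by complex for nuclear genes, with the *Ndufaf* assembly factors and the mitochondrially encoded genes in columns of their own (x axis). Red points were called, open points were not, black bars are medians and dashed lines mark a fold change of 1.5; mitochondrial genes sit around a median of 0.44 in Hox-URE versus Hox-WT and of -0.46 in URE-AML versus Hox-URE.

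Per kilobase of the annotated principal transcript, the mitochondrial genes were the most abundant. Their median level was 2790 CPM per kilobase for Hox-WT, 3140 for Hox-URE and 2360 for URE-AML, and that of the nuclear subunits 139, 160 and 159. *mt-Co2*, a catalytic subunit of complex IV, was highest at 7140, 9660 and 6840 CPM per kilobase, and *mt-Nd6*, the only one of the 13 encoded on the light strand, lowest at 9.57, 14.2 and 10.4. Among nuclear genes, *Atp5b*, the catalytic beta subunit of complex V, led at 1240, 1200 and 1300 CPM per kilobase. The 8 *Ndufaf* factors had medians of 19.1, 15.3 and 14.4. Lengths come from 1 annotated transcript per gene, and a long one (4371 bases for *Ndufb2*) lowers the level of its gene.

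Complex I had 37 nuclear genes, all tested, with the pseudogene *Ndufb4c* among them. *Ndufb4c* ranged from 45.1 to 53.8 CPM and *Ndufb4* from 17.5 to 25.3, reads cannot be assigned with certainty between these 2, and neither was called. In Hox-URE versus Hox-WT 1 of the 37 was higher and 1 lower (5.41% called, beside 37.2% of all genes). In each of the comparisons of URE-AML 4 were higher and 1 lower (13.5% called). Of all genes, 43.2% were called in URE-AML versus Hox-WT and 42.7% in URE-AML versus Hox-URE. The medians were -0.02 for Hox-URE versus Hox-WT, 0.30 for URE-AML versus Hox-WT and 0.14 for URE-AML versus Hox-URE on the log2 scale.

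The largest increase was that of *Ndufa1*, a small membrane-arm subunit needed for complex I assembly (chrX:37187588-37191163, minus strand). It stood at 6.04, 8.32 and 10.8 CPM in the 3 Hox-WT libraries, at 47.9, 52.8 and 70.0 in Hox-URE and at 45.5, 29 and 43.6 in URE-AML. All 6 libraries of the UREd/d lines lay above the 3 of Hox-WT. The log2 fold change was 2.76 ± 0.25 (SE) in Hox-URE (adjusted p = 1.08e-05) and 2.23 ± 0.25 in URE-AML (adjusted p = 3.06e-05), and the difference between the UREd/d lines, -0.53 ± 0.23, did not pass (adjusted p = 0.0736). The median of all genes tested on chromosome X was 0.08 and 0.00 in the comparisons with Hox-WT.

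*Ndufb8*, a membrane-arm subunit, was lower in Hox-URE alone. It stood at 178, 202 and 209 CPM in Hox-WT, at 114, 117 and 118 in Hox-URE and at 172, 187 and 204 in URE-AML, and the Hox-URE libraries lay below all others. The log2 fold changes were -0.76 ± 0.09 against Hox-WT (adjusted p = 8.48e-05) and 0.69 ± 0.09 for URE-AML versus Hox-URE (adjusted p = 0.000119). URE-AML and Hox-WT overlapped, with a difference of -0.07 ± 0.09 (adjusted p = 0.571).

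Of the 3 genes of the flavoprotein part of complex I, where NADH is oxidized, *Ndufv3* and *Ndufv1* were higher in URE-AML, and *Ndufv2* was called in no comparison (-0.22 ± 0.09, -0.07 ± 0.09 and 0.15 ± 0.09). *Ndufv3*, an accessory subunit there, stood at 44.8, 51.4 and 54.2 CPM in Hox-WT, at 41.0, 60.7 and 63.9 in Hox-URE and at 79.6, 102 and 124 in URE-AML. Its log2 fold changes were 1.02 ± 0.19 against Hox-WT (adjusted p = 0.00113) and 0.88 ± 0.19 against Hox-URE (adjusted p = 0.00278), with no overlap in either. *Ndufv1*, which binds the flavin that accepts electrons from NADH, stood at 149, 158 and 162 CPM in Hox-WT, at 239, 176 and 186 in Hox-URE and at 238, 245 and 265 in URE-AML. It was called in URE-AML versus Hox-WT (0.68 ± 0.12, adjusted p = 0.000628), and Hox-URE overlapped URE-AML through its first library.

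*Ndufb3*, a membrane-arm subunit, stood at 55.9, 59.8 and 61.1 CPM in Hox-WT, at 72.7, 70.2 and 75.4 in Hox-URE and at 78.2, 97.8 and 103 in URE-AML, with no overlap between any pair of lines. It was called in URE-AML versus Hox-WT (0.66 ± 0.11, adjusted p = 0.00044), and its value without URE-AML library 3 was 0.58, under the fold threshold. *Ndufs4*, an accessory subunit of the peripheral arm, stood at 62.8, 50.4 and 66.7 CPM in Hox-WT, at 55.2, 46.9 and 47.5 in Hox-URE and at 80, 72 and 92.4 in URE-AML, which lay above both Hox lines. It was called in URE-AML versus Hox-URE (0.71 ± 0.13, adjusted p = 0.00114). *Ndufa10* was called in the same comparison (0.68 ± 0.18, adjusted p = 0.00917), and its value fell to 0.58 without Hox-URE library 1 and to 0.49 without URE-AML library 3, where it was no longer called.

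*Ndufs5* was lower in URE-AML, and by less once the counts of its copy were added. *Ndufs5* itself stood at 41.7, 48.9 and 55.1 CPM in Hox-WT, at 50.8, 57.9 and 65.7 in Hox-URE and at 24.1, 26 and 26.7 in URE-AML, with log2 fold changes of -0.92 ± 0.13 against Hox-WT (adjusted p = 0.000164) and -1.18 ± 0.13 against Hox-URE (adjusted p = 3.25e-05). Its copy *Ndufs5-ps* held 35.7%, 32.3% and 39.2% of the counts of the pair in the URE-AML libraries, and at most 0.188% in the other 6. With the counts of the copy added, URE-AML stood at 37.5, 38.4 and 44.0 CPM, overlapped Hox-WT and still lay below Hox-URE. The differences were then -0.28 ± 0.13 (adjusted p = 0.0961) and -0.54 ± 0.13 (adjusted p = 0.00579), and neither was called. *Ndufa12*, another accessory subunit, was alike only in the share of its copy: *Ndufa12-ps* on chromosome 5 held 17.0%, 14.5% and 18.5% in URE-AML and at most 0.282% elsewhere. Without the copy, URE-AML differed by -0.13 ± 0.08 from Hox-WT (adjusted p = 0.205) and by 0.14 ± 0.08 from Hox-URE (adjusted p = 0.17). With the copy added, these were 0.14 ± 0.08 (adjusted p = 0.185) and 0.40 ± 0.08 (adjusted p = 0.00218). *Ndufa12* was called in no comparison with or without the copy. The cause was not tested.

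Complex II, succinate dehydrogenase, has 4 nuclear subunits. The 2 membrane anchors moved in opposite directions in Hox-URE. *Sdhc* stood at 108, 120 and 130 CPM in Hox-WT, at 147, 178 and 188 in Hox-URE and at 259, 250 and 287 in URE-AML, with no overlap between any pair of lines. It was called in URE-AML versus Hox-WT (1.15 ± 0.11, adjusted p = 1.3e-05) and against Hox-URE (0.63 ± 0.11, adjusted p = 0.000806). The latter value was 0.53 without Hox-URE library 1 and 0.58 without URE-AML library 3, under the fold threshold in both. In Hox-URE versus Hox-WT it was 0.52 ± 0.11 (adjusted p = 0.00323), also under that threshold.

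*Sdhd*, the other anchor, stood at 256, 243 and 249 CPM in Hox-WT, at 151, 151 and 160 in Hox-URE and at 197, 189 and 199 in URE-AML. The 3 lines did not overlap, and Hox-URE was lowest (-0.69 ± 0.07 against Hox-WT, adjusted p = 3.11e-05). *Sdha*, the flavoprotein that oxidizes succinate, had the same order with smaller differences, -0.51 ± 0.09 in Hox-URE (adjusted p = 0.000663) and -0.23 ± 0.09 in URE-AML (adjusted p = 0.0387) against Hox-WT, and was not called. *Sdhb*, the iron-sulfur subunit, differed by -0.01 ± 0.10, 0.07 ± 0.10 and 0.08 ± 0.10 in the 3 comparisons.

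Complex III had 8 nuclear subunits. Of these, 12.5% were called in Hox-URE versus Hox-WT (all genes 37.2%), 0% in URE-AML versus Hox-WT (all genes 43.2%) and 12.5% in URE-AML versus Hox-URE (all genes 42.7%). *Uqcrq*, a small subunit beside cytochrome b, was the only one called. It stood at 127, 125 and 154 CPM in Hox-WT, at 264, 223 and 242 in Hox-URE and at 145, 138 and 171 in URE-AML. The Hox-URE libraries lay above the other 6, with 0.84 ± 0.12 against Hox-WT (adjusted p = 0.000204) and -0.68 ± 0.12 for URE-AML versus Hox-URE (adjusted p = 0.000628). The latter value was -0.58, under the fold threshold, when counts were scaled by library total alone. In URE-AML versus Hox-WT, 0 of the 8 passed an adjusted p of 0.05 by edgeR, beside 57.7% of all genes, and 1 had an unadjusted p under 0.05. By DESeq2 *Uqcrfs1* passed an adjusted p of 0.05 there and was not called.

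Complex IV, cytochrome c oxidase, had 16 nuclear genes, of which 13 were tested. In Hox-URE versus Hox-WT 2 were higher and 1 lower (all genes 21.3% and 15.9%). In URE-AML 1 was higher and 3 lower than in Hox-WT (all genes 23.0% and 20.2%), and 2 were lower than in Hox-URE (all genes 22.4%). The 3 of 13 called lower in URE-AML relative to Hox-WT are near the share of all genes.

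*Cox7a2l* encodes a factor of respiratory supercomplexes that is related to the complex IV subunit *Cox7a2*. It stood at 127, 162 and 159 CPM in Hox-WT, at 179, 268 and 268 in Hox-URE and at 92.8, 86.5 and 96.3 in URE-AML. No pair of lines overlapped, and Hox-URE was highest and URE-AML lowest. The log2 fold changes were 0.67 ± 0.16 for Hox-URE versus Hox-WT (adjusted p = 0.00478), -0.70 ± 0.16 for URE-AML versus Hox-WT (adjusted p = 0.00337) and -1.37 ± 0.16 for URE-AML versus Hox-URE (adjusted p = 4.48e-05). The first was 0.57, under the fold threshold, without Hox-WT library 1, Hox-URE library 2 or Hox-URE library 3, and 0.56 with scaling by library total. Its copy *Gm6969* on chromosome 12 held 9.42% to 11.4% of the counts of the pair in URE-AML and no count in the other lines. With it added, URE-AML was at -0.54 ± 0.16 against Hox-WT, not called (adjusted p = 0.0136), and at -1.22 ± 0.16 against Hox-URE, still called (adjusted p = 0.000104). *Cox7a2* itself differed by at most 0.06 in size, at 0.01 ± 0.12, -0.05 ± 0.12 and -0.06 ± 0.12.

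*Ndufa4*, first named as a complex I protein and now placed in complex IV, was lower in URE-AML. It stood at 157, 208 and 204 CPM in Hox-WT, at 159, 196 and 213 in Hox-URE and at 74.7, 71.3 and 89.3 in URE-AML. The 2 Hox lines overlapped fully (0.00 ± 0.14), and URE-AML lay below both, at -1.27 ± 0.15 against Hox-WT (adjusted p = 4.11e-05) and the same against Hox-URE (adjusted p = 4.41e-05). No near-identical copy of it was found, and *Ndufa4l2*, its paralog, held no count in any library.

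*Cox6c*, a small subunit, was higher in both UREd/d lines. It stood at 53.6, 82.2 and 73.2 CPM in Hox-WT, at 127, 170 and 186 in Hox-URE and at 118, 117 and 126 in URE-AML, and the Hox-WT libraries lay below all others. The log2 fold changes against Hox-WT were 1.21 ± 0.17 in Hox-URE (adjusted p = 0.000219) and 0.79 ± 0.17 in URE-AML (adjusted p = 0.00259). It lies on chromosome 15, where the median of the 511 genes tested was 0.33 in Hox-URE versus Hox-WT and 0.00 in URE-AML versus Hox-WT, and the part of the former in the *Cox6c* value was not tested.

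Several complex IV and V subunits have tissue isoforms. *Cox4i1* ranged from 386 to 528 CPM over the 9 libraries and was called in no comparison. *Cox4i2*, its lung isoform, held 40, 13 and 7 counts in the URE-AML libraries and at most 2 in any other. *Cox6a2*, the heart and muscle isoform, held 228, 11 and 2 counts in Hox-URE and at most 4 elsewhere, so that 1 library carried nearly all of it. *Cox6b2*, the testis isoform, held 6, 13 and 12 counts in Hox-URE, 0 in each Hox-WT library and at most 2 in URE-AML. The corresponding common forms were not called: *Cox6a1* differed from Hox-WT by 0.45 ± 0.14 in Hox-URE (adjusted p = 0.0226) and by 0.55 ± 0.14 in URE-AML (adjusted p = 0.00735), and *Cox6b1* by 0.32 ± 0.16 (adjusted p = 0.128) and 0.45 ± 0.16 (adjusted p = 0.0391).

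*Cox7a1*, the heart and muscle isoform, was the weakest OXPHOS gene tested, with 19, 44 and 42 counts in Hox-WT, 9, 8 and 10 in Hox-URE and 4, 3 and 14 in URE-AML. It was lower in both UREd/d lines, at -1.68 ± 0.55 (adjusted p = 0.0249) and -2.02 ± 0.56 (adjusted p = 0.0106). The call in Hox-URE was lost in 4 of the 6 fits that left out a Hox-WT or Hox-URE library, at values of -1.48 to -1.59. *Cox8b* and *Cox8c* held no counts, and *Cox8a* ranged from 277 to 407 CPM and was not called.

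Complex V, ATP synthase, had 17 nuclear subunits, of which 1 was called in each comparison (5.88%). Of all genes, 37.2% were called in Hox-URE versus Hox-WT, 43.2% in URE-AML versus Hox-WT and 42.7% in URE-AML versus Hox-URE. *Atp5e*, the epsilon subunit of the central stalk, stood at 64.1, 89.4 and 96.3 CPM in Hox-WT, at 104, 185 and 213 in Hox-URE and at 124, 105 and 141 in URE-AML. Both UREd/d lines lay above Hox-WT, and it was called in Hox-URE (1.01 ± 0.25, adjusted p = 0.00621) and not in URE-AML (0.57 ± 0.25, adjusted p = 0.0715). *Atp5j2*, a subunit of the membrane part, stood at 140, 179 and 197 CPM in Hox-WT, at 134, 199 and 217 in Hox-URE and at 287, 297 and 372 in URE-AML. URE-AML lay above both Hox lines, by 0.89 ± 0.19 (adjusted p = 0.00257) and 0.80 ± 0.19 (adjusted p = 0.00477). Chromosome 5, where it lies, had medians of 0.18 and 0.23 over all genes tested in these comparisons.

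The proton-carrying ring of complex V is made from 3 genes for one mature protein. *Atp5g1* ranged from 264 to 361 CPM and *Atp5g3* from 402 to 511, and neither was called. *Atp5g2* was listed at 15.9 to 26.2 CPM, but its copy *Gm10175* held 90.1% to 95.1% of the counts of the pair. With the copy added, *Atp5g2* stood at 265, 279 and 300 CPM in Hox-WT, at 353, 410 and 449 in Hox-URE and at 311, 254 and 308 in URE-AML. The Hox-URE libraries were then above all others, by 0.52 ± 0.12 against Hox-WT (adjusted p = 0.00372), which is under the fold threshold, where *Atp5g2* alone gave 0.05 ± 0.17.

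**Figure D2:**
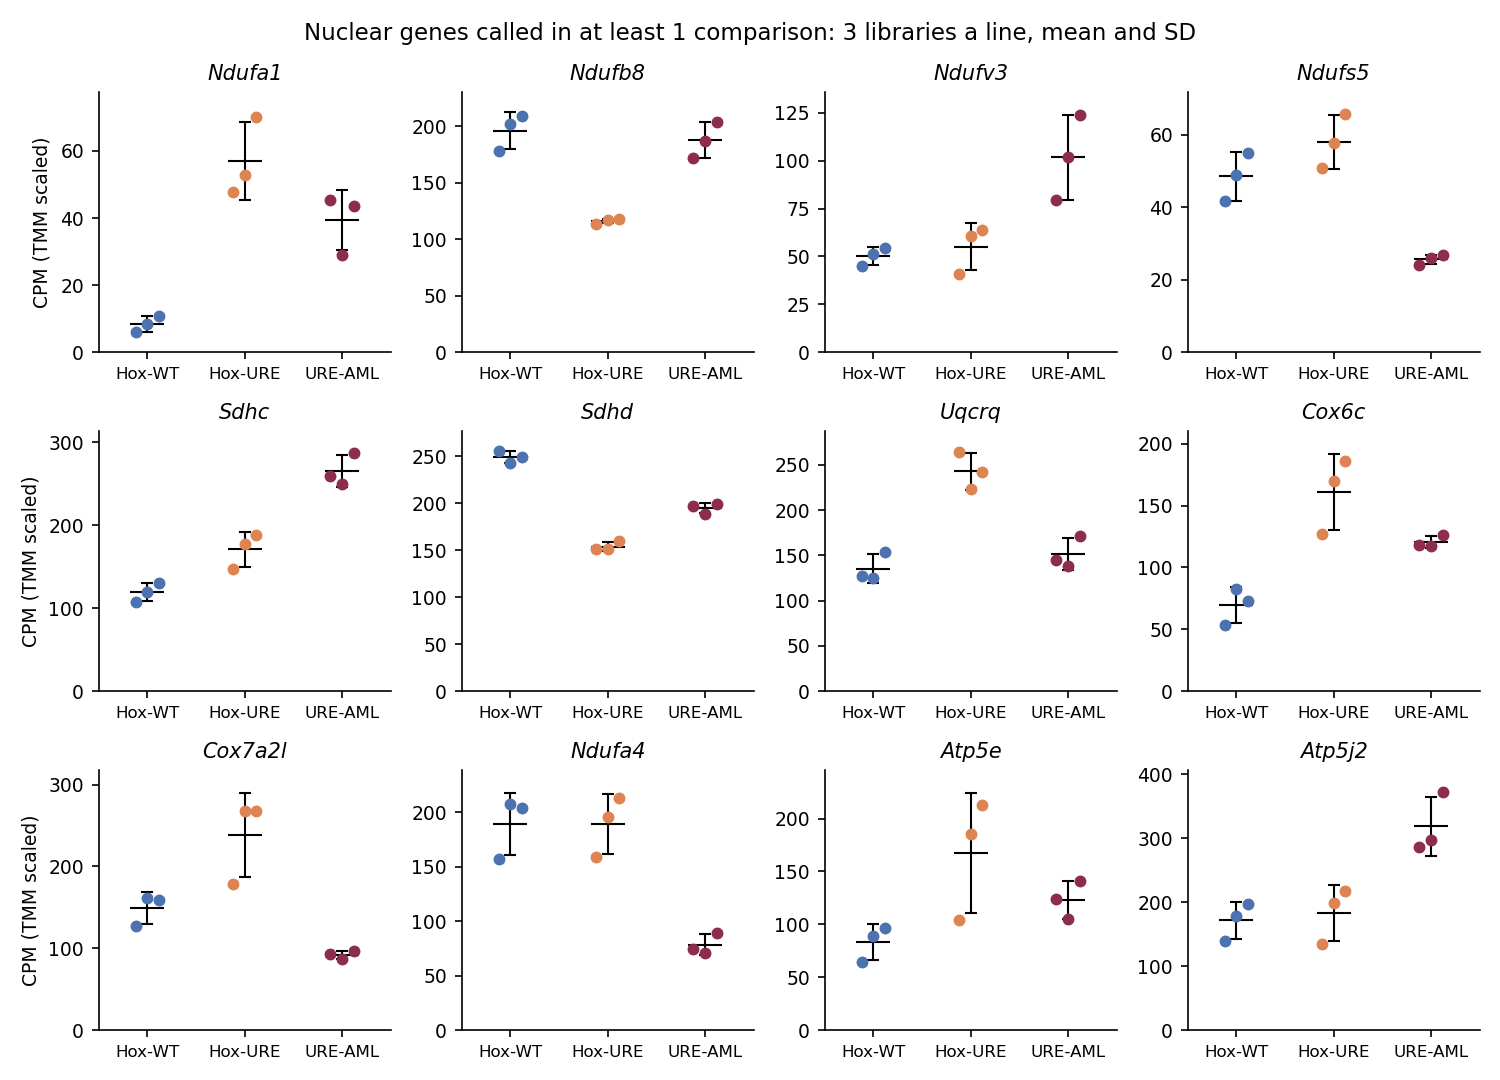
Levels in CPM after TMM scaling (y axis, from 0) of 12 nuclear OXPHOS genes called in at least 1 comparison, with 3 libraries per line as points and the mean and SD as bars. *Ndufa1* and *Cox6c* are low in Hox-WT, *Ndufb8* and *Sdhd* are low in Hox-URE, and *Ndufs5*, *Cox7a2l* and *Ndufa4* are low in URE-AML.

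Of the 8 *Ndufaf* assembly factors of complex I, none was called higher. Relative to Hox-WT, Hox-URE had 2 of them lower (all genes 15.9%) and URE-AML had 1 (all genes 20.2%). Relative to Hox-URE, URE-AML had 1 lower (all genes 22.4%). With 8 factors, these counts are near the shares of all genes. *Ndufaf2*, a chaperone that acts late in assembly, stood at 17.2, 18.4 and 24.5 CPM in Hox-WT, at 7.39, 11.4 and 10.1 in Hox-URE and at 8.60, 7.61 and 7.98 in URE-AML. Both UREd/d lines lay below Hox-WT, at -1.06 ± 0.19 (adjusted p = 0.000968) and -1.31 ± 0.19 (adjusted p = 0.000195). *Ndufaf7*, an arginine methyltransferase, stood at 33.0, 27.3 and 30.2 CPM in Hox-WT, at 39.8, 37.0 and 33.6 in Hox-URE and at 20.0, 17.4 and 25.1 in URE-AML and was lower in URE-AML relative to Hox-URE (-0.82 ± 0.14, adjusted p = 0.000698). *Ndufaf4* stood at 61.5, 42.3 and 43.6 CPM in Hox-WT, at 39.8, 33.9 and 23.2 in Hox-URE and at 39.7, 34.1 and 31.1 in URE-AML. It was lower in Hox-URE relative to Hox-WT (-0.60 ± 0.21, adjusted p = 0.0326), and this call was lost without Hox-WT library 1 (-0.41), Hox-URE library 2 (-0.65) or Hox-URE library 3 (-0.42).

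The 13 mitochondrially encoded genes had a common sign in the comparisons with Hox-URE, but few were called, and the libraries of a line spread widely. In Hox-URE versus Hox-WT all 13 differences were at or above 0, with a median of 0.44. There *mt-Nd4l* alone was called by edgeR, beside 37.2% of all genes, and *mt-Nd1* alone by DESeq2. In URE-AML versus Hox-URE all 13 were negative, with a median of -0.46. Here edgeR called *mt-Nd1* alone, beside 42.7% of all genes, and DESeq2 called 2. In URE-AML versus Hox-WT 5 were positive and 8 negative, with a median of -0.06. None was called there by edgeR, beside 43.2% of all genes, or by DESeq2. By edgeR 0 of the 13 had an unadjusted p under 0.05 in that comparison, beside 8109 of the 13082 genes tested. By DESeq2 0 of the 13 passed an adjusted p of 0.05. The 13 genes share their libraries and are transcribed from 1 small genome, and their common sign is not 13 separate observations. Single libraries moved these medians. Without Hox-URE library 1 they were 0.25 in Hox-URE versus Hox-WT and -0.27 in URE-AML versus Hox-URE, and without URE-AML library 2 the latter was -0.72. For URE-AML versus Hox-WT the median ran from -0.25 to 0.11 with 1 library left out. The common sign was also lost under some alternatives: *mt-Co3* reached -0.33, *mt-Co1* and *mt-Cytb* -0.06 and *mt-Nd3* -0.03 in Hox-URE versus Hox-WT, and *mt-Co3* reached 0.18 in URE-AML versus Hox-URE.

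The coefficient of variation among the 3 libraries of a line had a median over the 13 genes of 17.0% for Hox-WT, 33.6% for Hox-URE and 34.1% for URE-AML. Over the 87 nuclear genes tested it was 9.45%, 10.0% and 8.07%. The sum of the 13 genes was 36090, 41140 and 31100 CPM in the Hox-WT libraries, 51480, 54630 and 33330 in Hox-URE and 31140, 45140 and 27110 in URE-AML. Library 3 of Hox-URE lay apart from the other 2 of its line, and so did library 2 of URE-AML, whereas the Hox-WT libraries were about evenly spaced.

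The mitochondrial genome encodes 7 subunits of complex I. *mt-Nd1*, the membrane subunit at the quinone site, stood at 4440, 4970 and 3750 CPM in Hox-WT, at 9150, 6890 and 4550 in Hox-URE and at 3500, 5830 and 3370 in URE-AML. Libraries 1 and 2 of Hox-URE were the highest of the 9, and library 3 overlapped both other lines. The difference for Hox-URE versus Hox-WT was 0.65 ± 0.27 (edgeR, adjusted p = 0.0704), and it was called under 5 of 18 alternatives, DESeq2 among them. The difference for URE-AML versus Hox-URE was -0.70 ± 0.27 (adjusted p = 0.0498), with overlapping libraries. It was called under 9 of 18 alternatives, and without Hox-URE library 1 it was -0.44. The other leave-one-out fits that lost the call gave -0.56 to -0.70, without each of the 3 Hox-WT libraries, Hox-URE library 2, and URE-AML libraries 1 and 3.

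*mt-Nd4l*, a small membrane subunit, stood at 204, 193 and 146 CPM in Hox-WT, at 503, 336 and 245 in Hox-URE and at 156, 403 and 163 in URE-AML. Hox-URE lay above Hox-WT without overlap (1.00 ± 0.37, adjusted p = 0.0437). It was called under 10 of 18 alternatives. The call was lost with DESeq2, with scaling by library total, without any 1 of the 3 Hox-WT libraries (0.85 to 1.09) and without Hox-URE library 1 (0.68) or 2 (1.04). Its copy *Gm10222* held 0% to 39.5% of the counts of the pair in single libraries, and with the copy added the difference was 0.60 ± 0.32 (adjusted p = 0.14).

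*mt-Nd4* and *mt-Nd5*, proton-pumping subunits, followed the same libraries. *mt-Nd4* stood at 1650, 2140 and 1470 CPM in Hox-WT, at 3710, 3050 and 1690 in Hox-URE and at 1690, 3170 and 1500 in URE-AML. *mt-Nd5* stood at 1700, 2260 and 1590, at 3970, 3430 and 1910, and at 1850, 3640 and 1700. In both genes, Hox-URE libraries 1 and 2 and URE-AML library 2 were above all the rest, and no difference between lines passed an adjusted p of 0.05. Under alternatives, *mt-Nd4* was called in Hox-URE versus Hox-WT in 3 of 18 and *mt-Nd5* in 4 of 18, among them for both the fit with no filter on low counts, the one without Hox-URE library 3 and the one with the replicate number as a block.

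*mt-Nd2* stood at 2010, 2160 and 1710 CPM in Hox-WT, at 3930, 2710 and 1820 in Hox-URE and at 1650, 2820 and 1660 in URE-AML. *mt-Nd6* was low throughout, at 4.69, 5.64 and 4.57, at 11.3, 8.08 and 2.71, and at 3.96, 7.18 and 5.11 CPM. In both, the lines overlapped and no difference passed.

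*mt-Cytb*, the cytochrome b of complex III, stood at 2920, 3960 and 2710 CPM in Hox-WT, at 3610, 4570 and 2580 in Hox-URE and at 2310, 3750 and 2040 in URE-AML. *mt-Co1*, which holds the oxygen-reducing center of complex IV, stood at 6830, 8970 and 5590, at 8020, 11300 and 5740, and at 6560, 9270 and 4500 CPM. For both genes, library 2 was the highest and library 3 the lowest of every line, and the lines overlapped (adjusted p of 0.215 to 0.859). *mt-Co2* stood at 4830, 5800 and 4020, at 8070, 7260 and 4490, and at 3890, 6620 and 3540 CPM, and no difference passed (smallest adjusted p = 0.15).

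Without copies added, the complex V genes *mt-Atp6* and *mt-Atp8*, which share a transcript, had the lowest coefficients of variation of the 13 in both UREd/d lines. These were 17.4% and 14.2% in Hox-URE and 11.7% and 14.1% in URE-AML. Without its copy, *mt-Atp6*, the proton channel, stood at 4340, 4400 and 4180 CPM in Hox-WT, at 4460, 6260 and 5080 in Hox-URE and at 3400, 3980 and 3180 in URE-AML, with no overlap between any pair of lines. URE-AML was lower than Hox-URE (-0.58 ± 0.14, adjusted p = 0.00508), just under the fold threshold, and was called under 8 of 18 alternatives, DESeq2 and the fit of the 6 libraries compared among them. *mt-Atp8* stood at 888, 1020 and 798, at 959, 1170 and 902, and at 630, 805 and 821 CPM, and URE-AML was lower than Hox-URE (-0.43 ± 0.15, adjusted p = 0.0289), also under it. These 2 genes and *mt-Nd1* were the mitochondrial genes with an adjusted p under 0.05 in that comparison.

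**Figure D3:**
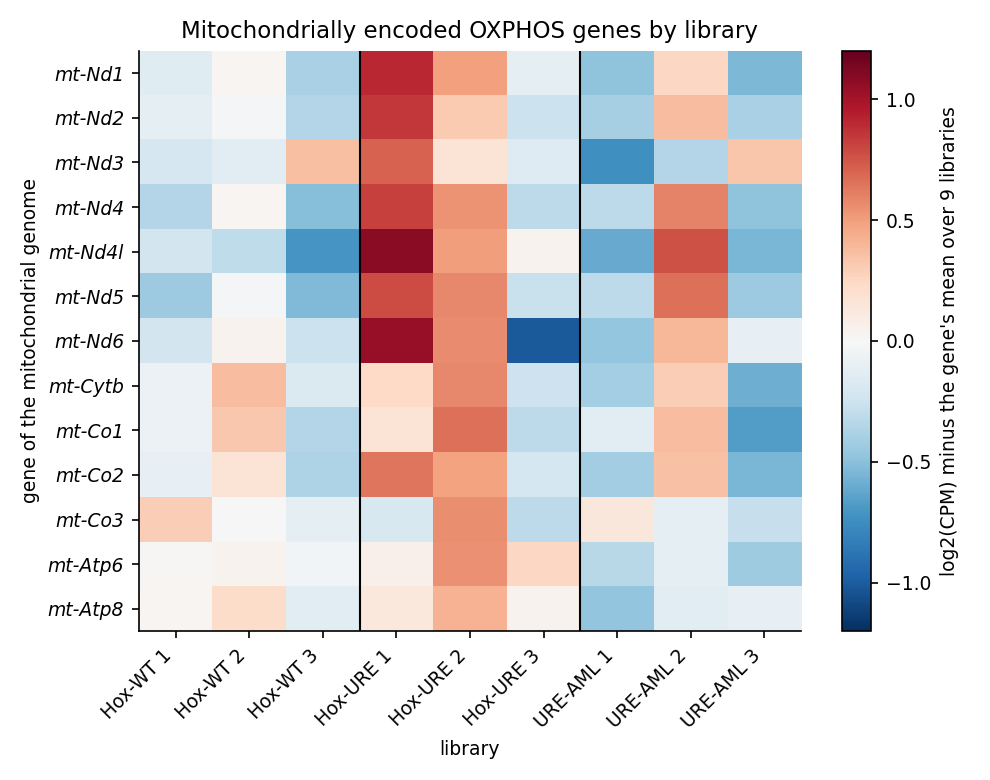
Log2 CPM of each of the 13 mitochondrially encoded genes (rows) in each of the 9 libraries (columns), as the difference from the mean of the gene over all 9. Libraries 1 and 2 of Hox-URE and library 2 of URE-AML are high for *mt-Nd1*, *mt-Nd2*, *mt-Nd4*, *mt-Nd4l* and *mt-Nd5*, and *mt-Nd6* falls lowest in library 3 of Hox-URE.

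Copies on chromosome 1 held many of the counts of 3 mitochondrial genes. For *mt-Nd3* and *mt-Co3* the libraries of each line spread less with the copy added, and for *mt-Atp6* they spread more in 2 of the 3 lines. *mt-Nd3* stood at 530, 556 and 783 CPM in Hox-WT, at 992, 682 and 547 in Hox-URE and at 364, 476 and 765 in URE-AML, and its copy *Gm28438* held 26.5% to 66.3% of the counts of the pair. With the copy added, the values were 1240, 1340 and 1340, then 1350, 1420 and 1430, and 1080, 1060 and 1110 CPM. The coefficient of variation was 22.4%, 30.9% and 38.7% without the copy and 4.39%, 3.10% and 2.42% with it, and URE-AML then lay below both other lines, at -0.27 ± 0.08 against Hox-WT (adjusted p = 0.0171) and -0.37 ± 0.08 against Hox-URE (adjusted p = 0.00308), both under the fold threshold. Without the copy, these differences were -0.22 ± 0.29 (adjusted p = 0.546) and -0.47 ± 0.29 (adjusted p = 0.195).

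*mt-Co3* stood at 5740, 4690 and 4350 CPM in Hox-WT, at 4090, 6920 and 3780 in Hox-URE and at 5140, 4360 and 3880 in URE-AML, and *Gm28437*, which is identical to it where aligned, held 31.9% to 60.0% of the pair. The coefficient of variation was 14.7%, 35.1% and 14.3% without the copy and 8.31%, 10.6% and 5.56% with it, and the differences with it between lines were 0.06 ± 0.12, -0.12 ± 0.12 and -0.19 ± 0.12, none of which passed. For *mt-Atp6*, *Gm10925* held 31.6% to 47.9%. With it added, URE-AML was lower than Hox-URE (-0.49 ± 0.15, adjusted p = 0.0195), and the coefficient of variation was 13%, 11.5% and 17.1%, beside 2.71%, 17.4% and 11.7% without it. Hox-WT, then at 6490 to 8310 CPM, overlapped Hox-URE, at 7430 to 9360, and URE-AML, at 5070 to 7120. In both UREd/d lines *mt-Atp6* then spread more than *mt-Nd3* and *mt-Co3* with their copies. The copy of *mt-Nd4* held at most 2.57% of the counts of the pair, and the spread of *mt-Nd4* in Hox-URE and URE-AML was 37.2% and 43.5% with the copy added.

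**Figure D4:**
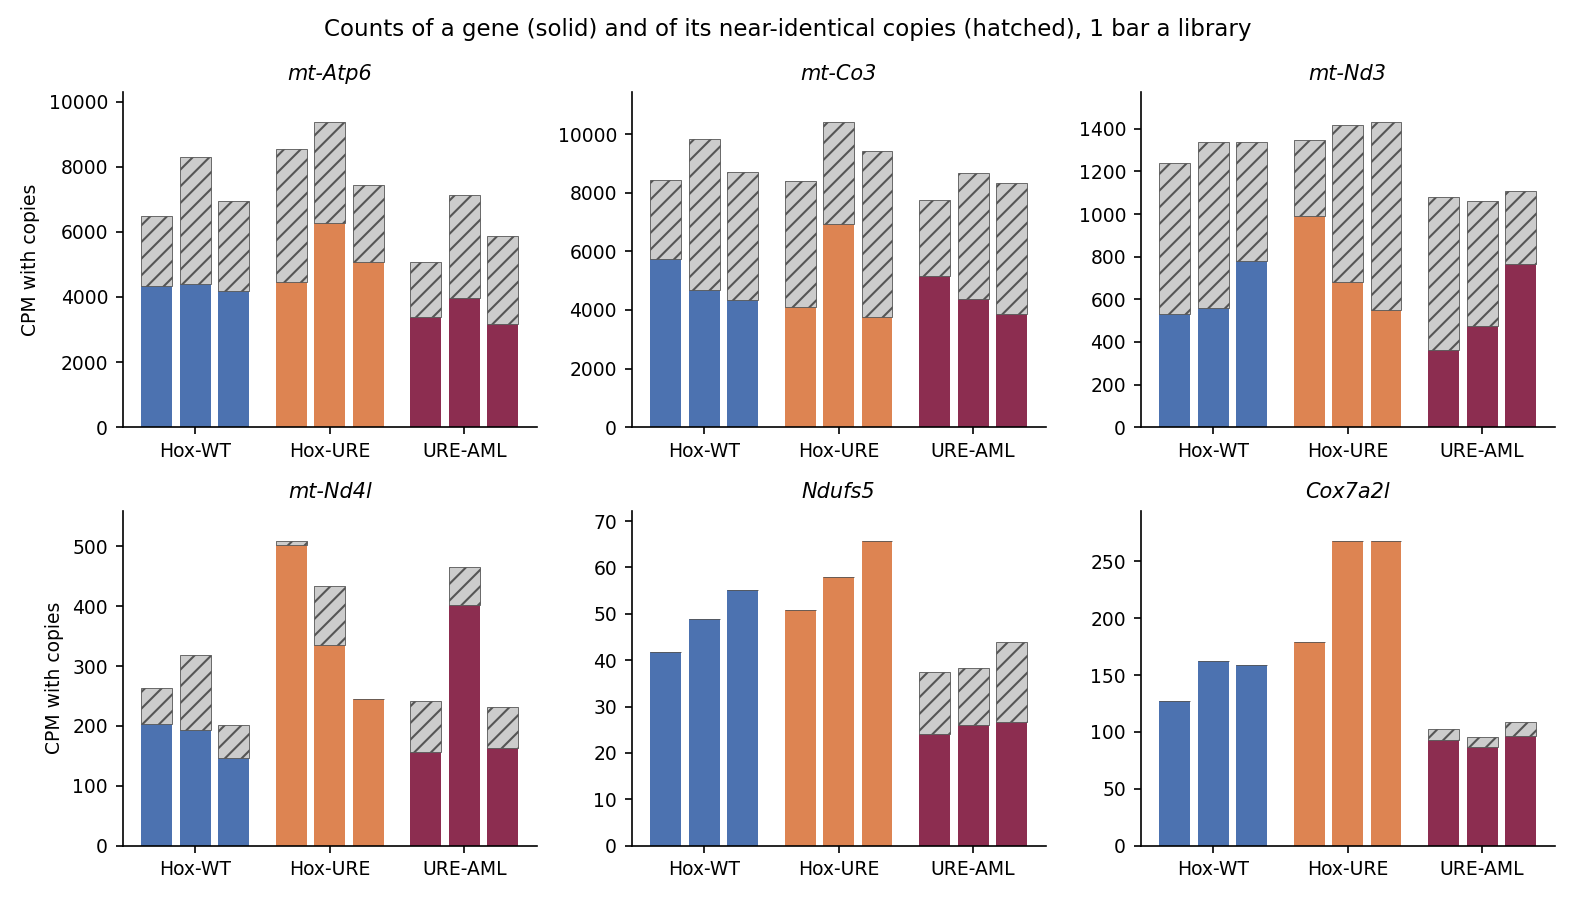
Counts of 6 genes (solid) and of their near-identical copies (hatched) in each library, in CPM (y axis, from 0), with 1 bar per library in 3 groups of 3. For *mt-Nd3* the solid parts vary while the whole bars are nearly level within a line, whereas for *Ndufs5* and *Cox7a2l* copies hold counts in URE-AML almost alone.

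Nuclear and mitochondrial OXPHOS transcripts were then compared as sums. The 90 nuclear genes took 1.63% to 1.80% of counts for Hox-WT, 1.55% to 1.59% for Hox-URE and 1.77% to 1.96% for URE-AML. The 13 mitochondrial genes took 3.14% to 4.23%, 3.12% to 5.15% and 2.74% to 4.67%. As shares of counts, the nuclear genes of Hox-URE lay below both other lines. After TMM scaling their sums were 16040 to 17010 CPM in Hox-URE and 15790 to 17790 in Hox-WT, and overlapped, whereas those of URE-AML, at 17130 to 19390, still lay above Hox-URE. The mitochondrial sums of the 3 lines overlapped on either scale.

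The ratio of mitochondrial to nuclear CPM was 2.29, 2.49 and 1.75 in the Hox-WT libraries, 3.21, 3.33 and 1.96 in Hox-URE and 1.77, 2.64 and 1.40 in URE-AML. In means, this was 2.18 ± 0.383 (SD, n = 3), 2.83 ± 0.759 and 1.94 ± 0.637. The second library was the highest and the third the lowest of each line, and all pairs of lines overlapped. The 39 nuclear genes with transcripts under 800 bases deviated from the mean of their line by a median of 0.12, 0.11 and 0.12 on the log2 scale in the third libraries, and the part of what these libraries share in the ratio was not tested. The differences of the mean log2 ratio were 0.36 for Hox-URE versus Hox-WT, -0.20 for URE-AML versus Hox-WT and -0.56 for URE-AML versus Hox-URE, and the SD within a line was 0.265, 0.428 and 0.464. The genes are a chosen list, so these sums are given without a test. In bulk libraries, fewer mitochondria, fewer transcripts in each and less capture by poly-A selection cannot be told apart. The 2 mitochondrial ribosomal RNAs took 0.359% to 0.453% of counts for Hox-WT, 0.382% to 0.565% for Hox-URE and 0.184% to 0.301% for URE-AML, so that the URE-AML libraries lay below all others, and the third library was the lowest of each line.

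**Figure D5:**
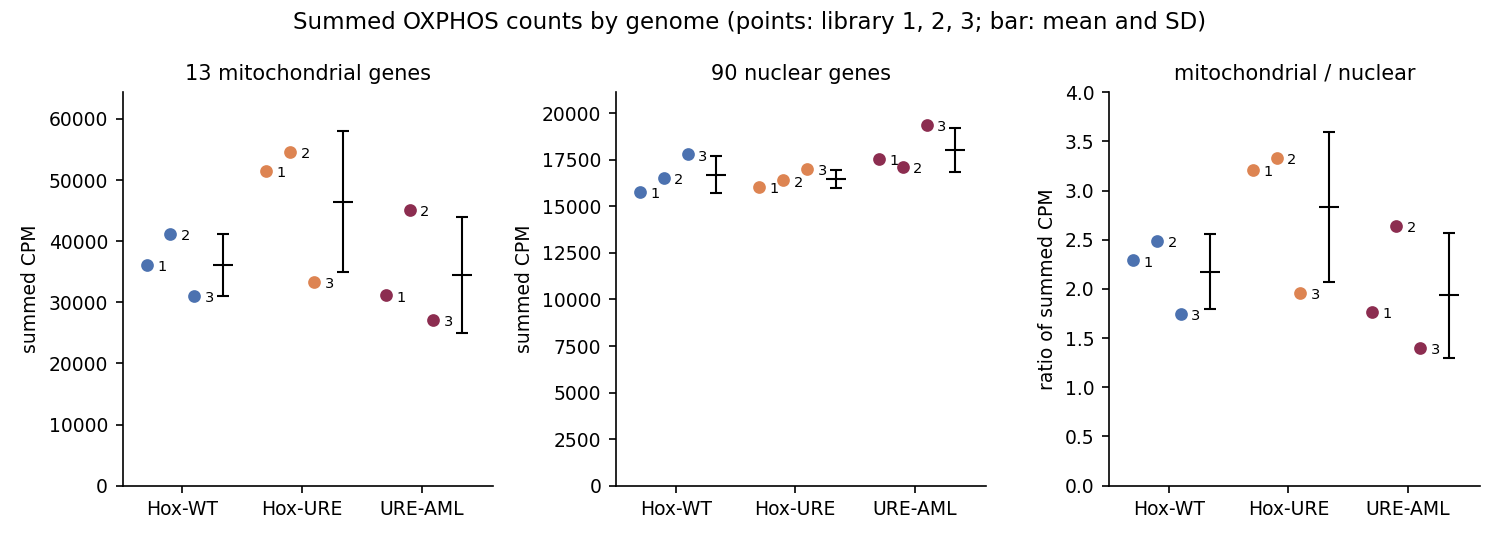
Summed CPM of the 13 mitochondrial and of the 90 nuclear OXPHOS genes and the ratio of these sums (y axes, from 0), with each library as a numbered point and the mean and SD of 3 libraries as a bar. The nuclear sums lie close together, while the mitochondrial sums and the ratio of libraries 1 and 2 of Hox-URE, at 3.21 and 3.33, stand above all other libraries.

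Further genes of the pathway were counted by lists. Of 9 other complex I assembly factors, 3 were lower in Hox-URE relative to Hox-WT and none higher (median log2 fold change -0.20). They were *Nubpl*, which delivers iron-sulfur clusters (-0.90 ± 0.16, adjusted p = 0.00104), *Ecsit* (-0.71, adjusted p = 0.00145) and *Acad9* (-0.63, adjusted p = 0.00165). None was called in URE-AML versus Hox-WT, and 1 was higher and 1 lower in URE-AML versus Hox-URE, where *Nubpl* was the higher one (1.26, adjusted p = 9.13e-05). Of 24 complex IV assembly factors, 3 were higher in Hox-URE: *Cox14*, *Cox17*, the copper chaperone, and *Cox20*, at 0.87, 0.78 and 0.68. In URE-AML versus Hox-WT, 2 of them were higher and 2 lower, and *Coa6*, also a copper chaperone, was lower at -0.99 (adjusted p = 2.25e-05). In URE-AML versus Hox-URE, 1 was higher and 4 lower. Of the 4, 6 and 5 assembly factors of complexes II, III and V, at most 2 were called in any direction.

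Of 20 genes of electron carriers, which serve coenzyme Q or feed it electrons, with cytochrome c (*Cycs*) among them, 2 rose and 5 fell in Hox-URE relative to Hox-WT, 5 and 2 in URE-AML versus Hox-WT, and 8 and 2 in URE-AML versus Hox-URE. *Sqor*, which passes electrons from sulfide to coenzyme Q, was at 0.483 ± 0.361 CPM (SD, n = 3) in Hox-WT, at 22.3 ± 9.89 in Hox-URE and at 53.5 ± 10.1 in URE-AML. *Coq7*, a hydroxylase of coenzyme Q synthesis, was at 40.9 ± 5.78, 20.6 ± 2.33 and 67.4 ± 6.88 CPM and passed in all 3 comparisons. *Gpd2*, the glycerol-3-phosphate dehydrogenase of the inner membrane, was lower in both UREd/d lines, at -0.75 and -0.59.

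Of 22 genes of mitochondrial DNA maintenance and transcription, 3 rose and 1 fell in Hox-URE relative to Hox-WT (all genes 21.3% and 15.9%). In URE-AML 1 was higher and 7 lower relative to Hox-WT (all genes 23.0% and 20.2%), and 1 was higher and 4 lower relative to Hox-URE (all genes 20.3% and 22.4%). *Top1mt*, the mitochondrial topoisomerase, was lower in both UREd/d lines (-3.05 and -2.70, adjusted p = 7.24e-05 and 0.000103). *Twnk*, the replicative helicase, was lower in URE-AML relative to Hox-WT (-0.66, adjusted p = 0.000889), and *Polg*, the DNA polymerase, was higher (0.81, adjusted p = 0.000214). Of 22 genes of mitochondrial RNA processing, 1 was higher and 4 lower in Hox-URE, among them *Supv3l1*, a helicase of RNA decay (-1.41, adjusted p = 5.77e-06), and *Ptcd3* (-0.97, adjusted p = 2.29e-05). In URE-AML 2 were higher and 3 lower relative to Hox-WT, and 2 higher and 2 lower relative to Hox-URE.

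Of 78 mitochondrial ribosomal protein genes, 2 rose and 9 fell in Hox-URE relative to Hox-WT (median -0.34), 3 and 5 in URE-AML versus Hox-WT (median -0.07), and 13 and 4 in URE-AML versus Hox-URE (median 0.26). Of 21 genes of protein import and mitochondrial mass, 7 were lower in Hox-URE relative to Hox-WT and none higher (median -0.45), among them *Tomm70a*, an import receptor, and *Timm44* of the inner membrane (-0.70 and -0.63). For URE-AML versus Hox-WT 3 of these were lower, *Hspe1*, *Tomm20* and *Hspd1*, at -1.49, -1.35 and -0.71, and in URE-AML versus Hox-URE 2 were lower and none higher. Of 12 regulators of mitochondrial biogenesis, 1 was called in Hox-URE versus Hox-WT: *Myc*, which was lower (-1.09, adjusted p = 9.48e-05). Relative to Hox-WT, URE-AML had 3 lower and none higher: *Nrip1*, a nuclear receptor corepressor (-6.14, adjusted p = 6.99e-09), *Pprc1*, a coactivator (-0.75, adjusted p = 0.000795), and *Myc* (-0.83, adjusted p = 0.000443). In URE-AML versus Hox-URE *Nrip1* was lower (-6.37, adjusted p = 6.87e-09) and *Nrf1*, whose motif was counted above, was higher (0.89, adjusted p = 0.000171). The shares of all genes called in each direction, given above, are the background of these counts.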

How the data were processed

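Stranded poly-A libraries of 3 mouse cell lines were sequenced by the authors, who quantified reads with salmon on GRCm38 and summed them to genes with tximport. The authors deposited 1 table of estimated counts, 9 libraries wide, rounded to whole numbers and without scaling for depth. The transcriptome release and any correction for transcript length are not given in the sources used here. Salmon divides reads between similar transcripts by estimation, so counts of a gene and its near-identical copies can shift between libraries, and PCR duplicates were not resolved by molecular identifiers.

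Lines were taken from the sample labels. The filterByExpr function (minimum count 10) retained 13082 genes. These entered a fit in edgeR 4.0.16 (R 4.3.3), with TMM factors of 0.938 to 1.04, all 9 libraries in 1 quasi-likelihood model and line as the only factor. The common biological coefficient of variation was 0.173, and 3 counts corresponded to 0.104 to 0.153 CPM. Tests were two-sided, with Benjamini-Hochberg adjustment over all genes tested, and SE was obtained as the size of the log2 fold change over the root of its F statistic. CPM use library totals times TMM factors. Coordinates and copies came from GENCODE M21 (GRCm38), and promoters from RefSeq (GRCm38.p6).

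Any OXPHOS gene could be named. Values per library are given for the mitochondrial genes, for called assembly factors and for the called nuclear genes with the smallest p in each complex (up to 3 in each direction and comparison). They are also given for isoform pairs, of which those not called may have a range or differences alone. At most 4 called genes of another list were named in each comparison. Members and lists were chosen with earlier results of these data known. Alternatives were other scalings (size factors, library total, mitochondrial genes left out of scaling), other count filters, the 6 libraries compared alone, a replicate block, DESeq2 1.42.0, copies added to their genes, no fold threshold, and each library left out. The edgeR fit was also run on simulated counts, and the outcome of that run is not given here. No libraries of a line agreed within sampling noise.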

Additional observations from a re-analysis of the deposited data

How the results depend on the processing

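The counts of nuclear OXPHOS genes called, 10, 12 and 11 of 87 in Hox-URE versus Hox-WT, URE-AML versus Hox-WT and URE-AML versus Hox-URE, stayed within 1.5 times under each alternative but 1: with no fold change threshold they were 32, 37 and 30 (17, 27 and 23 higher). Scaling by library size only moved the higher calls in URE-AML versus Hox-URE, from 6 to 12, and left 4 lower in place of 5. Other splits of the nuclear calls moved by over 1.5 times as well. For Hox-URE versus Hox-WT 9 were higher in place of 5 without Hox-WT library 2, Hox-WT library 3 or Hox-URE library 1, and 3 were lower in place of 5 without Hox-URE library 2. For URE-AML versus Hox-WT 3 were lower in place of 5 with copies added, and in URE-AML versus Hox-URE 8 were lower in place of 5 without Hox-URE library 1. The counts of mitochondrial genes were small and moved. In Hox-URE versus Hox-WT the count was 1 and became 0 with scaling by library size only and with near-identical copies added, 4 with no filter on low counts, and 0 to 6 with 1 library left out (6 without Hox-URE library 3). With DESeq2 it was also 1, but *mt-Nd1* in place of *mt-Nd4l*. In URE-AML versus Hox-URE it was 1 and became 0 with scaling by library size only, 2 with DESeq2-style size factors, with mitochondrial genes left out of scaling, with at least 10 counts in every library and with DESeq2, 3 with no fold change threshold, and 0 to 8 with 1 library left out (8 without URE-AML library 2). In URE-AML versus Hox-WT it was 0 throughout. The causes were not tested.

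With the replicate number as a block, 4 mitochondrial genes (*mt-Nd1*, *mt-Nd4*, *mt-Nd4l* and *mt-Nd5*) were called in Hox-URE versus Hox-WT in place of 1, and no other count moved by over 1.5 times. Same-numbered libraries correlated at 0.00376 to 0.24 in their deviations from the line means, with 2 of 9 pairs over 0.1, and no label says that a number marks a shared batch, so the libraries were not treated as paired. As a hint from the data and not from the design, all 9 same-number correlations were positive, and 6 of 9 libraries correlated best with their own number in both other lines.

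Of 628 values that the 35 called gene differences took under 18 alternatives, 591 kept direction and call, 37 kept the direction and lost the call, and 0 reversed, and 23 of the 35 differences were called under every alternative. Scaling by library size only moved the median of all genes by 0.11 in URE-AML versus Hox-URE. The ratio of mitochondrial to nuclear sums cannot change with scaling. It moved by less than the SD between libraries with the mean of log2 CPM over genes, without *mt-Nd6*, *mt-Nd4l* and *mt-Atp8*, with nuclear subunits only, with copies added and with 1 library left out, and the last gave, on the log2 scale, 0.21 (without Hox-WT library 3) to 0.61 (without Hox-URE library 3) for Hox-URE versus Hox-WT, where the value was 0.36, and 0.22 without Hox-URE library 2. For URE-AML versus Hox-WT (-0.20) it gave -0.45 (without URE-AML library 2) to 0.01 (without URE-AML library 3), and -0.10 and -0.35 without Hox-WT libraries 2 and 3. For URE-AML versus Hox-URE (-0.56) it gave -0.81 (without URE-AML library 2 or Hox-URE library 3) to -0.35 (without URE-AML library 3).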
